A study of Homo sapiens with 12 samples.

Results

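p53 target genes are genes that the transcription factor p53 switches on when cells are stressed. A list of 34 such genes was followed here in RNA-Seq of HCT116 cells, a human colorectal carcinoma line with intact p53. In some of the groups the transcriptional regulator KAP1 had been depleted. Members were matched by symbol to the gene identifiers of the count table, and all 34 were among its 19901 protein-coding genes. All 34 also had 10 or more counts in 6 or more libraries, as did 13093 genes in all, and were tested.

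The cells, labelled KAP1_dTAG_CloneD5, were 1 clone in which KAP1 (encoded by TRIM28) carries a degradation tag, so that the small molecule dTAG removes the protein and leaves the transcript in place. Every group was kept in serum-free medium for 48 h, and DMSO (the solvent) or dTAG was added for the last 8 h. Cells were then taken as they were (S0) or after 30 min of serum (S30), which gives the groups DMSO-S0 and DMSO-S30 and, under dTAG, dTAG-S0 and dTAG-S30, of 3 libraries each. The study calls the libraries of a group biological replicates, and the labels name no batch.

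In unstressed cells p53 is kept scarce by the ubiquitin ligase MDM2, itself a p53 target, with help from its relative MDM4. KAP1 is known to bind MDM2 and to act with it against p53, which makes the p53 targets a natural group to examine after KAP1 loss. When p53 is stabilised it binds a response element in or near its targets, and their products hold the cell cycle, repair DNA, adjust metabolism or start apoptosis. Several of the targets also respond to other signals, growth factors among them, and are counted among early response genes.

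The p53 response element consists of 2 adjoining 10-base motifs. Each has 3 purines, a core made of C, a pair of bases that are each A or T, and G (CATG, for instance), and 3 pyrimidines, and the motif reads the same on both strands. The hg38 sequence within 3 kb on either side of the 5′ end of each gene in the table was searched for 2 motifs in a row with intact cores and at most 2 mismatches in the 12 flanking bases. Of the 34 genes, 12 (35.3%) held such a match, against 381 of the 13093 genes tested (2.91%). A match describes these letters only and is no measure of binding in these cells. Some of the matches are shown, for genes whose values are given below whether or not they were called, with the cores in capitals. Each is read 5′ to 3′ on the strand of its gene, which is the minus strand of hg38 for ZMAT3 and PANK1.
CDKN1A: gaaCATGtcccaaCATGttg
BTG2: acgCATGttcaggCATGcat
GADD45A: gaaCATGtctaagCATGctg
ZMAT3: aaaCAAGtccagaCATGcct
CCNG1: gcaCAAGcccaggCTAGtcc
FAS: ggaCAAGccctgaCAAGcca
SPATA18: ggaCATGtgtgtaCATGccc
PANK1: aggCAAGcccaggCATGgtg
The CDKN1A match lay at chr6:36676449-36676468, centred at position -2256 from the RefSeq start, in the UTR of a GENCODE v44 transcript that begins further upstream. The BTG2 match was at chr1:203303642-203303661, outside the gene, at -1840 from its 5′ end. The GADD45A match (chr1:67686775-67686794) was in an intron, 1724 bases after the 5′ end, and had 1 mismatch. ZMAT3 held the match with 0 mismatches, in an intron at chr3:179070188-179070207. The matches of CCNG1 (chr5:163437926-163437945, 1 mismatch) and SPATA18 (chr4:52051957-52051976, 2 mismatches) were intronic, that of FAS (chr10:88991309-88991328) was in a coding exon, and that of PANK1 (chr10:89647250-89647269) lay at -1688 from the 5′ end. DDB2, RPS27L and GDF15 had no match in this window.

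Total counts ran from 20537682 to 26278707 per library, of which ERCC spike-in RNA took 7.97% to 9.37%. The 34 genes received 53760 to 73503 counts, or 0.259% to 0.319% of the counts of genes. Their single values rested on 25 counts (TRIM22, in its lowest library) to 7391 counts (TNFRSF10B, in its highest). Epithelial markers summed to 1218 to 1671 CPM (normalised counts, scaled to the size of the library), with CEACAM5 at 0 in all 12 libraries. Immune markers summed to 4.29 to 6.65 CPM and endothelial markers to 1.89 to 3.97 CPM. Fibroblast markers summed to 12.4 to 16.4 CPM without serum and 66.2 to 85.9 CPM with serum, nearly all of it COL1A1. Of the 6 fibroblast markers 1 (LUM) was at 0 in all libraries, the group means of DCN, COL1A2 and COL3A1 were at most 0.168 CPM, and their part in the serum results was not tested. FOS, the check of serum, was 5.48 ± 0.821 CPM in DMSO-S0 and 485 ± 43.9 CPM in DMSO-S30 (mean ± SD, n = 3).

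Without serum the 34 genes spanned a wide range of levels per kb of gene, introns included. In DMSO-S0, CCNG1 (cyclin G1, which recruits a phosphatase to MDM2) gave the highest level at 30.8 CPM per kb, followed by TRIAP1 (a mitochondrial lipid-transfer cofactor that restrains apoptosis) at 20.6 CPM per kb. BTG2, GADD45A and CDKN1A, the cell cycle arrest genes, stood at 9.54, 8.85 and 7.55 CPM per kb, and MDM2 at 6.09 CPM per kb. The lowest level was that of TRIM22, at 0.04 CPM per kb. With serum in DMSO-treated cells BTG2 moved to the top of this order at 65.6 CPM per kb.

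**Figure D1:**
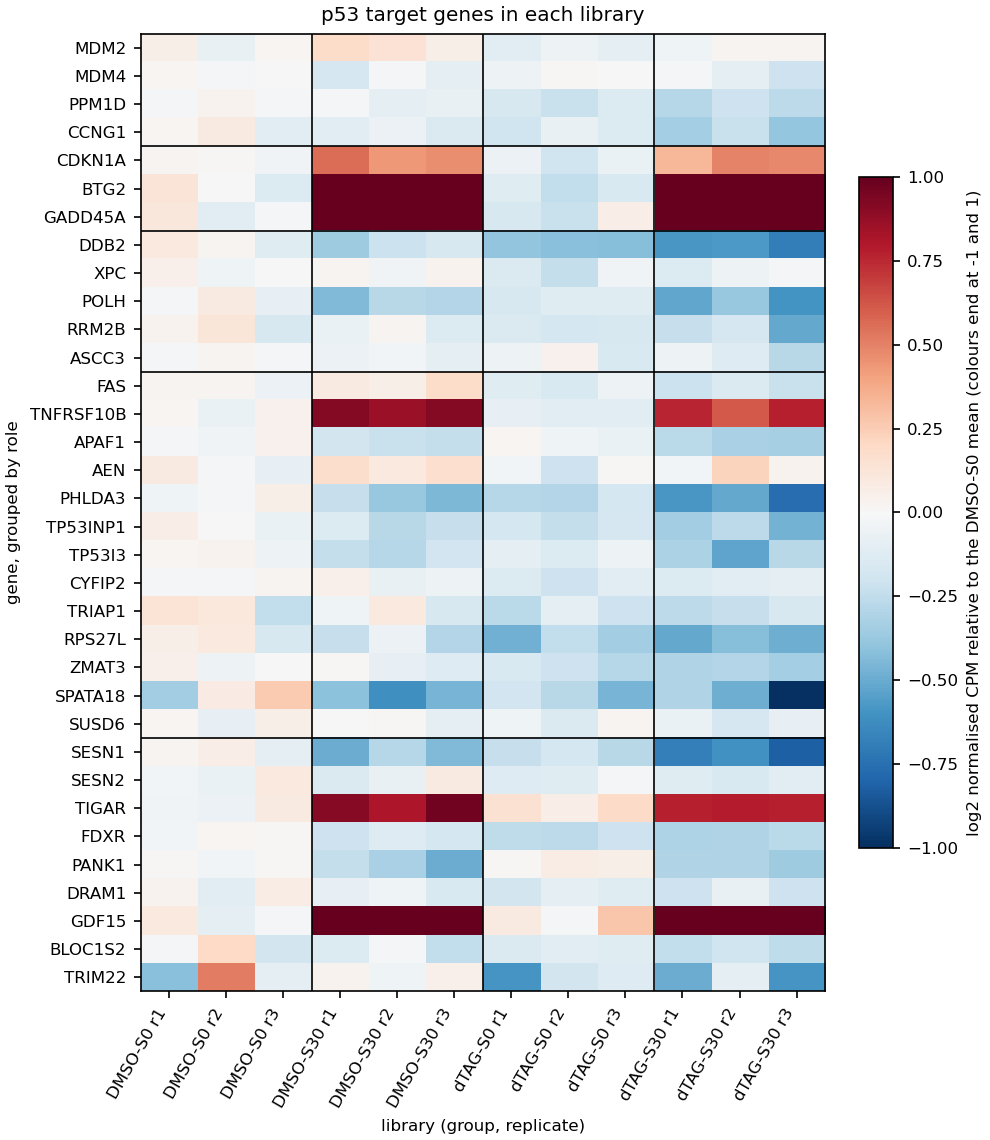
Each row is 1 of the 34 p53 target genes, grouped by role, and each column 1 of the 12 libraries; colour gives the log2 ratio of the normalised CPM to the mean of the 3 DMSO-S0 libraries. Red rows in the S30 columns are the genes raised by serum, led by BTG2 (log2 fold change 2.81 in DMSO) and GDF15 (2.38). The DDB2 row is blue in all 6 dTAG libraries and also in the 3 DMSO-S30 libraries.

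The first comparison asked which p53 targets respond to 30 min of serum when KAP1 is present. In DMSO-treated cells 6 of the 34 genes rose and 10 fell at an edgeR adjusted p under 0.05. Over all genes tested, 9.15% rose and 17.0% fell. Both the 6 rises and the 10 falls (of 34) lay above these shares, and the falls are to be read against a background that was itself high. The median log2 fold change of the 34 genes was -0.07, the same as that of all genes (-0.07). Log2 fold changes of the 6 rises ran from 0.49 to 2.81, and those of the 10 falls from -0.17 to -0.64. With serum in dTAG-treated cells 6 rose and 8 fell, against 9.04% and 15.3% of all genes, and the median was -0.08 (all genes, -0.06). The same 6 genes rose under DMSO and under dTAG, and 7 genes fell under both.

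All 3 cell cycle arrest genes rose with serum. BTG2, an antiproliferative protein that brings the deadenylase to mRNAs, was at 42.8, 39.3 and 35.6 CPM in the 3 DMSO-S0 libraries and 268, 253 and 289 CPM in DMSO-S30. Its log2 fold change was 2.81 ± 0.070 (SE, adjusted p = 1.21e-21), a 7.02-fold rise and the largest of the 34. The groups lay far apart, with every library with serum above every library without. GADD45A, a growth arrest protein induced by DNA damage, went from 31.4, 26.9 and 28.7 CPM to 90.6, 84.5 and 97.4 CPM, a log2 fold change of 1.69 ± 0.079 (SE, adjusted p = 1.34e-15). CDKN1A encodes p21, the inhibitor of cyclin-dependent kinases through which p53 halts the cycle. Its level was 83.8, 82.6 and 80.0 CPM without and 121, 111 and 113 CPM with serum. The rise of CDKN1A was much smaller than that of BTG2, at 0.49 ± 0.064 (SE, adjusted p = 1.31e-06), and again without overlap between the groups. In dTAG-treated cells the log2 fold changes were 2.66 for BTG2, 1.63 for GADD45A and 0.54 for CDKN1A, with adjusted p of 2.52e-21, 1.80e-15 and 1.76e-07.

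None of the 4 feedback genes passed the test for serum in DMSO-treated cells. MDM2 was at 269, 246 and 262 CPM in DMSO-S0 and 293, 286 and 269 CPM in DMSO-S30. The groups did not overlap, but the difference was small, with a log2 fold change of 0.14 ± 0.058 (SE, adjusted p = 0.0708). MDM4, which blocks the activation domain of p53, gave -0.09, and PPM1D, the phosphatase WIP1 that turns off damage signalling, -0.07 (adjusted p = 0.299 and 0.368). CCNG1 gave -0.09 in DMSO-treated cells (adjusted p = 0.285) and fell in dTAG-treated cells, by 0.19 on the log2 scale (adjusted p = 0.0306), a call that was lost under 5 of 10 alternative settings.

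Among the 5 repair genes 2 fell and none rose. POLH, the polymerase eta that copies past ultraviolet lesions, was at 47.4, 50.9 and 45.1 CPM without serum and 35.2, 39.4 and 39.1 CPM with it, a log2 fold change of -0.32 ± 0.074 (SE, adjusted p = 0.00187). DDB2, which finds such lesions for nucleotide excision repair, was at 93.2, 88.4 and 79.9 CPM and 68.1, 75.0 and 77.9 CPM, a log2 fold change of -0.21 ± 0.065 (SE, adjusted p = 0.0158). In each case the 3 libraries with serum lay below the 3 without. In dTAG-treated cells both fell too, POLH at a log2 fold change of -0.37 (adjusted p = 5.60e-04) and DDB2 at -0.22 (adjusted p = 0.014). XPC, the partner lesion sensor, RRM2B, the p53-inducible subunit of ribonucleotide reductase, and ASCC3, a helicase of alkylation repair, lay between -0.07 and 0.02 in DMSO-treated cells and were not called. The POLH gene shares 26.2% of its span with GTPBP2 on the other strand, whose own log2 fold change was -0.10 (adjusted p = 0.346).

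The 13 genes of apoptosis and survival held 1 rise and 5 falls. TNFRSF10B, a death receptor for TRAIL, was at 182, 171 and 185 CPM in DMSO-S0 and 339, 326 and 339 CPM in DMSO-S30. With a log2 fold change of 0.90 ± 0.060 (SE, adjusted p = 3.26e-12) it was the only member of this group that serum raised, and no library of 1 group reached the range of the other. FAS, the other death receptor on the list, gave 0.12 (adjusted p = 0.296). Falls were found for APAF1, the scaffold of the apoptosome, which went from 70.5, 69.5 and 73.4 CPM to 62.6, 60.8 and 60.5 CPM (-0.23 ± 0.059 (SE, adjusted p = 0.00511)). PHLDA3, an inhibitor of AKT, went from 14.6, 15.0 and 15.7 CPM to 12.9, 11.6 and 11.1 CPM (-0.38 ± 0.101 (SE, adjusted p = 0.00661)). SPATA18, a mitochondrial quality control protein of low level, was at 4.82, 6.51 and 7.36 CPM and 4.61, 4.01 and 4.44 CPM (-0.64 ± 0.159 (SE, adjusted p = 0.0039)). SPATA18 fell most of the 5, and although its libraries were spread widely, its groups did not overlap. TP53I3, a quinone oxidoreductase, went from 25.3, 25.6 and 24.2 CPM to 21.3, 20.6 and 21.9 CPM (-0.24 ± 0.084 (SE, adjusted p = 0.0404)). TP53INP1, a nuclear stress protein, went from 142, 135 and 129 CPM to 123, 112 and 116 CPM (-0.21 ± 0.064 (SE, adjusted p = 0.0142)). Both of these genes lie wholly within the span of a gene on the other strand, and NDUFAF6, which holds TP53INP1, fell as well (-0.45, adjusted p = 5.46e-06). Whether reads were counted by strand is not given in the sources used here. The mean over all libraries was 92.3 CPM for NDUFAF6 and 9.39 CPM for FAM228B, which holds TP53I3. TP53INP1 had group means of 106 to 135 CPM and TP53I3 of 19.3 to 25.1 CPM, above these means. Whether the values hold reads of both genes was not tested.

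In dTAG-treated cells TNFRSF10B rose again (0.82, adjusted p = 1.40e-11), and APAF1 (-0.27, adjusted p = 0.00103), PHLDA3 (-0.35, adjusted p = 0.0125) and TP53I3 (-0.28, adjusted p = 0.0142) fell. SPATA18 and TP53INP1 gave -0.22 and -0.17 and were not called there (adjusted p = 0.332 and 0.0505). The other apoptosis and survival genes (AEN, CYFIP2, TRIAP1, RPS27L, ZMAT3 and SUSD6) were not called with serum in either treatment.

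Of the 9 genes of metabolism, autophagy and secreted signals, 2 rose and 3 fell in DMSO-treated cells. GDF15, a secreted stress cytokine, was at 20.6, 18.2 and 19.2 CPM without and 92.0, 92.5 and 108 CPM with serum, a log2 fold change of 2.38 ± 0.086 (SE, adjusted p = 5.62e-18). TIGAR, a fructose bisphosphatase that turns glucose away from glycolysis, went from 25.2, 24.8 and 27.5 CPM to 48.5, 45.3 and 50.4 CPM, a log2 fold change of 0.88 ± 0.073 (SE, adjusted p = 2.74e-10). The levels with serum were all above those without for both genes. SESN1, a sestrin that restrains mTORC1, fell from 36.7, 37.8 and 33.7 CPM to 25.6, 29.6 and 26.5 CPM (-0.39 ± 0.081 (SE, adjusted p = 7.19e-04)), while SESN2, its leucine-sensing relative, gave -0.04 (adjusted p = 0.81). PANK1, a kinase of coenzyme A synthesis, fell from 59.9, 58.2 and 59.9 CPM to 50.2, 47.5 and 42.2 CPM (-0.36 ± 0.068 (SE, adjusted p = 2.99e-04)). FDXR, the mitochondrial ferredoxin reductase, was the weakest call at -0.17 (adjusted p = 0.0494). In dTAG-treated cells GDF15 rose by 1.90 and TIGAR by 0.65, SESN1 gave -0.48 and PANK1 -0.36, all log2 fold changes that were called (adjusted p = 3.73e-16, 5.78e-08, 6.68e-05 and 1.94e-04), and FDXR gave -0.06 (adjusted p = 0.561). DRAM1, BLOC1S2 and TRIM22 were not called in either treatment.

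The 6 genes that rose with serum spanned 3.28 to 49.0 kb (median 12.7 kb), the 10 that fell in DMSO-treated cells 4.86 to 108 kb (median 32.1 kb), and the 18 not called 2.45 to 373 kb (median 38.2 kb). Across the 34 genes span and serum response in DMSO-treated cells had a Spearman correlation of -0.18, as a description of genes measured in the same libraries. The 6 rises were called under all 22 alternative settings in both treatments, as were the falls of PANK1, SESN1 and POLH in DMSO-treated cells. The other 7 falls each lost the call under 1 to 7 of 10 alternatives, ERCC library sizes among them in each case. With 1 library left out FDXR was called in 4, TP53I3 in 5, DDB2 in 9 and TP53INP1 in 10 of 12 fits, and APAF1, PHLDA3 and SPATA18 in 12. Leaving out any of the 6 DMSO libraries or dTAG-S0 replicate 1, or for FDXR dTAG-S0 replicate 3, ended the calls of FDXR and TP53I3 (adjusted p up to 0.141 and 0.147), DMSO-S0 replicate 2 and DMSO-S30 replicates 1 and 2 that of DDB2 (up to 0.0918), and DMSO-S30 replicates 2 and 3 that of TP53INP1 (up to 0.0973). Under TMM scaling 5 of the 34 fell under each treatment, and over all genes the split moved from 1198 higher and 2222 lower to 1690 higher and 1059 lower in DMSO-treated cells.

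**Figure D2:**
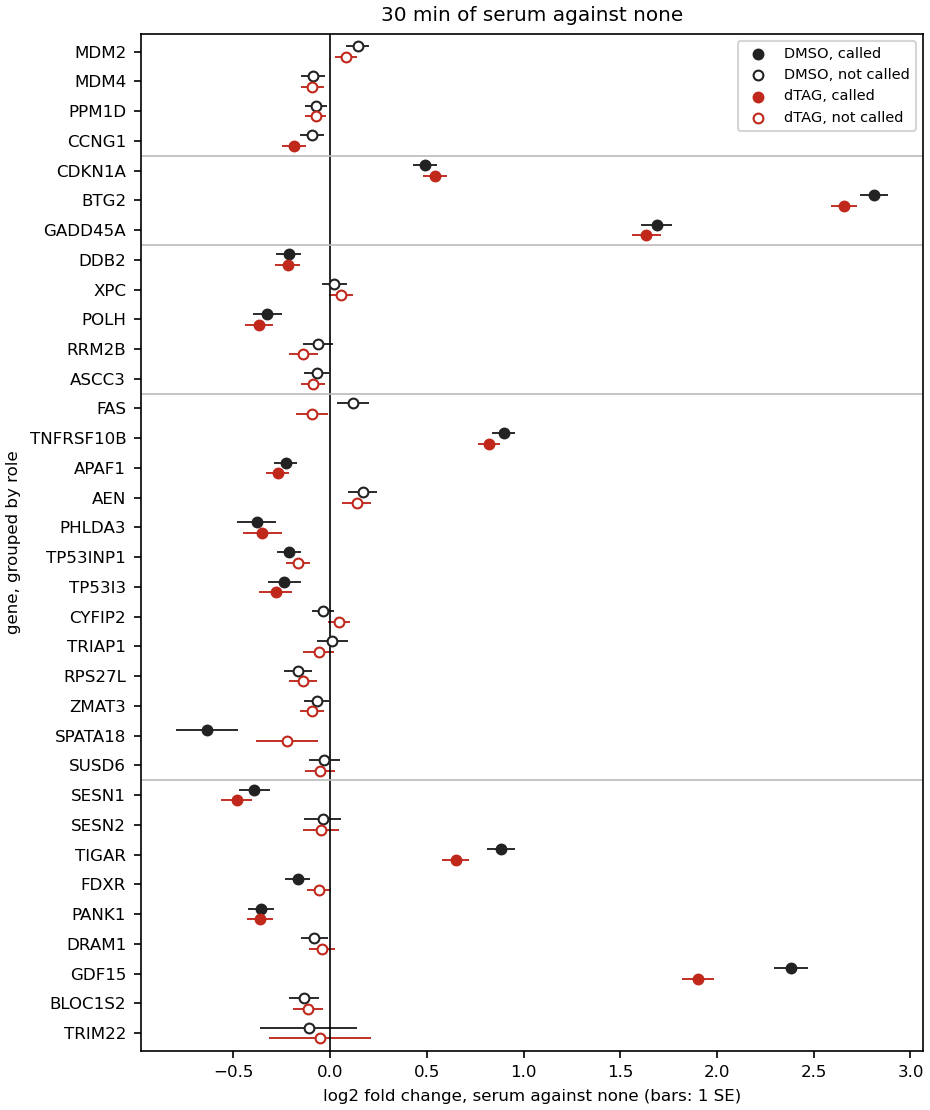
Log2 fold change of 30 min of serum against none for each of the 34 genes (points, with bars of 1 SE), in DMSO-treated cells (black) and dTAG-treated cells (red); 3 libraries per group. The points of BTG2, GDF15, GADD45A, TNFRSF10B, TIGAR and CDKN1A lie to the right of 0 in both treatments and those of most other genes near or left of it.

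**Figure D3:**
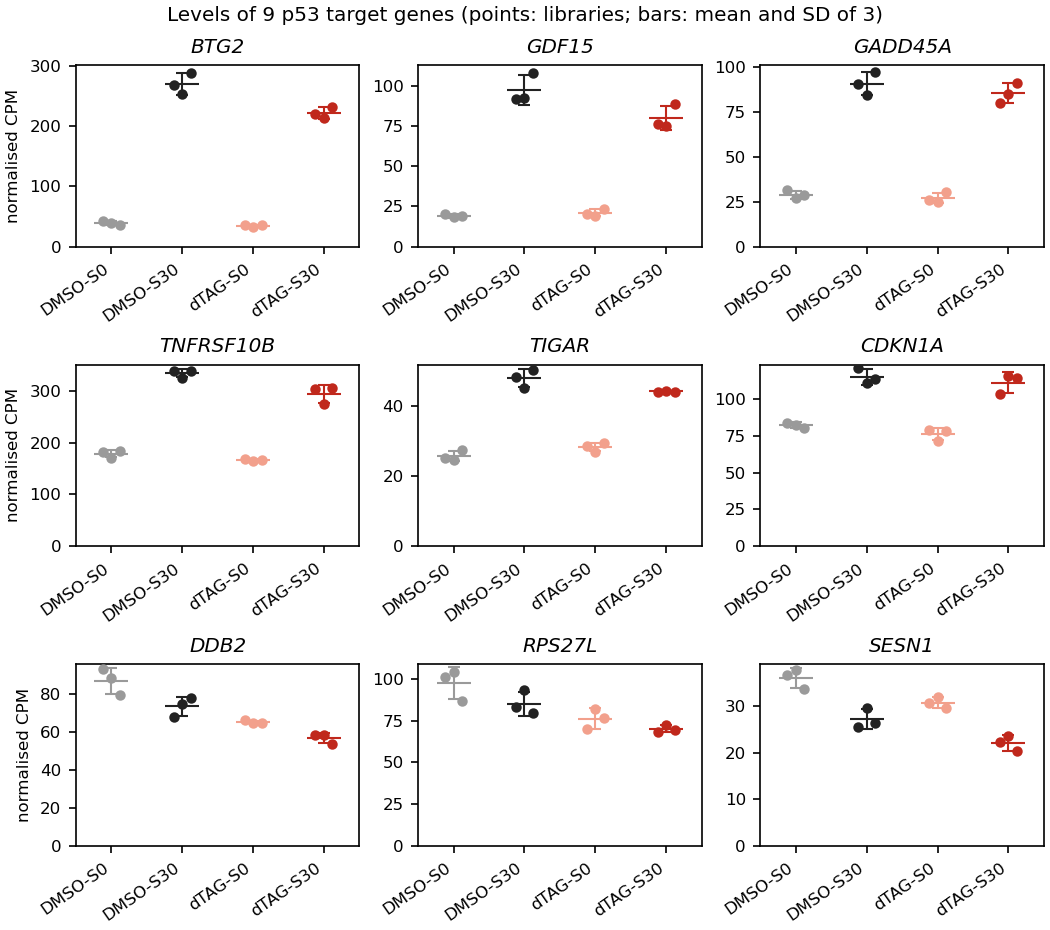
Normalised CPM of 9 p53 target genes in the 4 groups; points are the 3 libraries of a group, and bars their mean and SD. BTG2 goes from 39.3 CPM in DMSO-S0 to 269.9 CPM in DMSO-S30 and 222 CPM in dTAG-S30, while DDB2 goes from 87.2 CPM in DMSO-S0 to 65.4 CPM in dTAG-S0.

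The second pair of comparisons asked what KAP1 depletion did to these genes, without and with serum. Every library came from the tagged clone, so an effect of dTAG itself cannot be told apart from that of KAP1 loss. Nearly all members lay slightly lower in dTAG-treated than in DMSO-treated cells, but few of them passed the test on their own. Without serum 2 of the 34 genes fell (DDB2 and RPS27L) and 0 rose, where 0.435% of all genes tested fell and 0.848% rose. With serum 4 fell (DDB2, BTG2, RPS27L and GDF15) and 0 rose, where 0.626% of all genes fell and 0.588% rose. At an unadjusted p under 0.05 there were 14 genes without and 16 with serum, all of them lower. Over all genes tested, 6.13% without and 5.4% with serum were lower at that threshold, and 5.4% and 5.04% higher. The likelihood ratio test and DESeq2 likewise called 0 members higher. In bulk RNA fewer cells expressing a gene and less RNA per cell cannot be told apart.

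DDB2 changed most clearly. It was at 93.2, 88.4 and 79.9 CPM in DMSO-S0 and 66.2, 65.0 and 64.9 CPM in dTAG-S0 (log2 fold change -0.39 ± 0.064 (SE, adjusted p = 7.02e-04)). With serum it was at 68.1, 75.0 and 77.9 CPM in DMSO-S30 and 58.3, 58.3 and 54.0 CPM in dTAG-S30 (log2 fold change -0.40 ± 0.065 (SE, adjusted p = 7.07e-04)). The dTAG libraries lay below the DMSO libraries at either serum level, a fall of 23.9% without and 24.2% with serum. Both calls held under all 22 alternative settings. The 3 dTAG-S0 libraries were close to each other, whereas those of DMSO-S0 spread over 79.9 to 93.2 CPM.

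RPS27L, a ribosomal protein S27-like protein, was at 101, 104 and 86.9 CPM in DMSO-S0 and 69.7, 82.0 and 76.6 CPM in dTAG-S0 (-0.33 ± 0.071 (SE, adjusted p = 0.0113)). With serum it was at 82.8, 93.1 and 79.3 CPM in DMSO-S30 and 68.3, 72.4 and 69.4 CPM in dTAG-S30 (-0.31 ± 0.073 (SE, adjusted p = 0.0252)). The groups were apart in each comparison, with gaps smaller than for DDB2. LACTB, on the other strand, covers 50.4% of the span of RPS27L, and its own log2 fold changes were -0.08 and 0.04 (adjusted p = 0.833 and 0.952). The call without serum was lost without DMSO-S0 replicate 2 (adjusted p = 0.116), dTAG-S0 replicate 1 (0.0723) or dTAG-S0 replicate 3 (0.0650). That with serum was lost without DMSO-S30 replicate 1 (0.0661) or 2 (0.262), or dTAG-S30 replicate 1 (0.0506) or 3 (0.151).

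BTG2 and GDF15, the members that serum raised most, were called lower after KAP1 depletion with serum. BTG2 was at 268, 253 and 289 CPM in DMSO-S30 and 220.4, 213 and 232 CPM in dTAG-S30, with a log2 fold change of -0.31 ± 0.063 (SE, adjusted p = 0.00753) and a fall of 19.3%. GDF15 was at 92.0, 92.5 and 108 CPM and 76.5, 74.9 and 88.9 CPM, a log2 fold change of -0.33 ± 0.077 (SE, adjusted p = 0.0253) and a fall of 20.4%. All 3 dTAG-S30 libraries were below all 3 DMSO-S30 libraries for each gene, though the highest dTAG-S30 value of GDF15 (88.9 CPM) came near the lowest of DMSO-S30 (92.0 CPM). Without serum BTG2 was at 36.0, 33.0 and 35.1 CPM in dTAG-S0 and GDF15 at 20.5, 19.1 and 23.4 CPM. These overlapped the DMSO-S0 libraries, with log2 fold changes of -0.16 (adjusted p = 0.394) and 0.15 (adjusted p = 0.554). Without DMSO-S30 replicate 3 the adjusted p with serum rose to 0.113 for BTG2 and 0.296 for GDF15. The GDF15 call was also lost without DMSO-S30 replicate 1 (0.0584), dTAG-S30 replicate 1 (0.0650) or dTAG-S30 replicate 2 (0.126).

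Serum-induced genes outside the list of members also lay lower with serum. FOS, an AP-1 transcription factor subunit, was at 485 ± 43.9 CPM in DMSO-S30 and 391 ± 16.9 CPM in dTAG-S30, and fell (-0.32 ± 0.071 (SE, adjusted p = 0.0173)). Of 8 such genes all 8 lay below 0 after KAP1 depletion with serum, with a median of -0.22, and 2 were called lower (FOS and ATF3, which is also among the other p53 targets). Of all genes tested 50.2% lay below 0 there and 0.626% were called lower. Without serum 2 of the 8 lay below 0, the median was 0.15, and JUN was called higher, where 52.3% of all genes lay below 0 and 0.848% were called higher. The FOS call was lost with ERCC library sizes (adjusted p = 0.0516), without DMSO-S30 replicate 1 (0.0512) and without dTAG-S30 replicate 1 (0.0942). The part of this in the values of BTG2 and GDF15 was not tested.

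The remaining members were not called in either comparison and are given by role, though some changes were as large as those called. SPATA18, of low level, gave -0.41 without serum and 0.01 with serum (edgeR adjusted p = 0.253 and 0.993). TRIM22, the member with the fewest counts, gave -0.38 and -0.32 (edgeR adjusted p = 0.614 and 0.745). All 4 feedback genes lay below 0 in both comparisons, with MDM2 at -0.08 without and -0.14 with serum (adjusted p = 0.658 and 0.362). PPM1D gave -0.18 and -0.18 (adjusted p = 0.131 and 0.139), with dTAG libraries of 99.5 to 106 CPM against 115 to 119 CPM in DMSO without serum. MDM4 gave -0.01 and -0.02. Of the arrest genes, CDKN1A gave -0.10 and -0.05 and GADD45A -0.07 and -0.13, none called (adjusted p from 0.394 for BTG2 to 0.789 for GADD45A without serum). p21 transcript was at 83.8, 82.6 and 80.0 CPM in DMSO-S0 and 78.9, 71.4 and 78.3 CPM in dTAG-S0, so the groups just failed to overlap for CDKN1A, and with serum they overlapped.

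The 5 repair genes all lay below 0 in both comparisons, with medians of -0.13 and -0.17. XPC, which acts beside DDB2, gave -0.13 and -0.09 (adjusted p = 0.432 and 0.666). Of the 13 apoptosis and survival genes 13 lay below 0 without and 12 with serum, with medians of -0.16 and -0.14. ZMAT3, an RNA-binding zinc finger protein that carries the match with 0 mismatches shown above, was at 69.9, 65.6 and 63.5 CPM in DMSO-S30 and 56.3, 56.6 and 54.7 CPM in dTAG-S30. Its log2 fold changes, -0.22 without and -0.24 with serum, missed the threshold (adjusted p = 0.098 and 0.0606) although the groups did not overlap. FAS gave -0.10 without serum and -0.32 with serum (adjusted p = 0.677 and 0.0616). Among the 9 metabolism, autophagy and secreted signal genes 6 and 8 lay below 0. FDXR gave -0.24 without serum, just short of the threshold (adjusted p = 0.0514), and SESN1 -0.31 with serum (adjusted p = 0.0722).

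The shift was small and shared by most members. Because the members were chosen with earlier results of these data known, the counts here describe the list and are no independent test. The median log2 fold change was -0.13 without and -0.14 with serum, against -0.01 and 0.00 for all genes tested. Below 0 lay 31 of 34 genes without and 32 of 34 with serum, and the comparisons share no library. In both comparisons 30 of the 34 genes lay below 0 and 1 (PANK1) above, against 32.8% and 30.3% of all genes. Of the 34 genes 23 without and 29 with serum lay below the 25th percentile of all genes. The DMSO and dTAG libraries did not overlap for 12 genes without serum and 19 with serum, all lower in dTAG, where 9.23% and 8.1% of all genes did not overlap in that direction and 8.5% and 7.62% in the other. Taken library by library, the members' median against the DMSO mean of the same serum level was -0.14, -0.16 and -0.12 in dTAG-S0 replicates 1 to 3 and -0.16, -0.11 and -0.13 in dTAG-S30, so that no single library carried the shift. Under the 22 alternative settings the number below 0 was 29 to 31 without serum and 31 to 33 with serum. Across the 34 genes the fold changes without and with serum had a Pearson correlation of 0.38 and a Spearman correlation of 0.47, as a description.

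**Figure D4:**
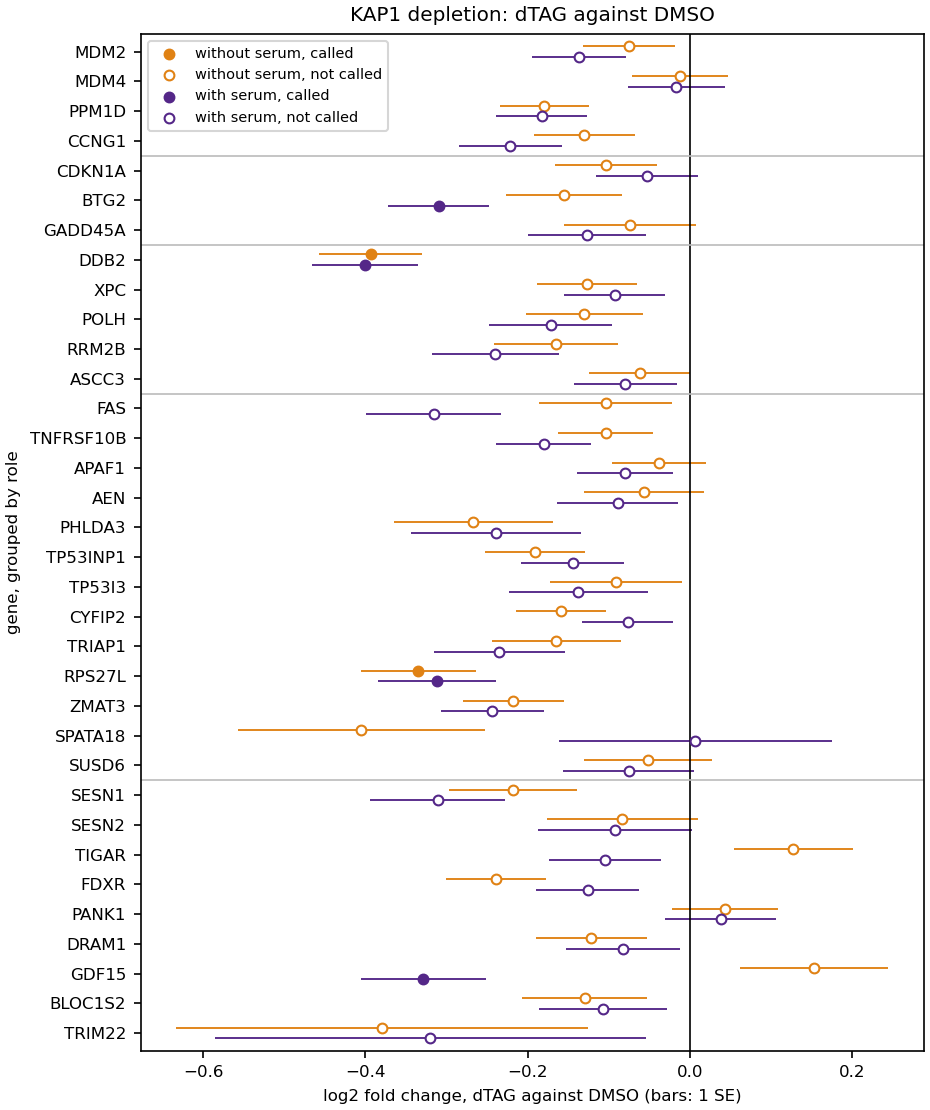
Log2 fold change of dTAG against DMSO for each of the 34 genes (points, with bars of 1 SE), without serum and with 30 min of serum; 3 libraries per group. Points lie left of 0 for 31 genes without and 32 genes with serum, most of them by less than 0.3, and DDB2 is near -0.40 in both.

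**Figure D5:**
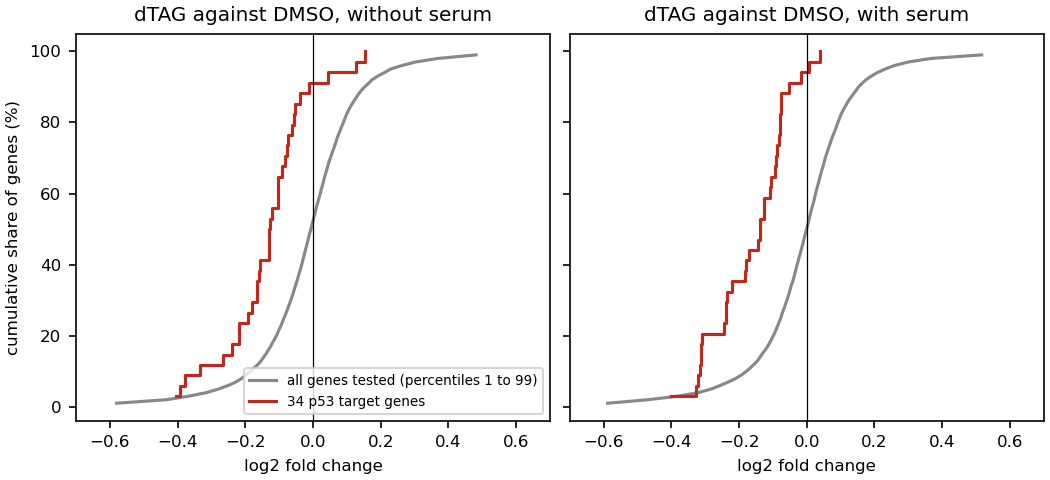
Cumulative share of genes (%) against the log2 fold change of dTAG against DMSO, without serum (left) and with serum (right), for the 34 p53 target genes (red) and all 13093 genes tested (grey, percentiles 1 to 99). The red curve runs to the left of the grey one, with medians of -0.13 and -0.14 against -0.01 and 0.00.

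The last comparison asked whether KAP1 depletion changed the serum response itself. None of the 34 genes had a different serum effect in dTAG-treated and DMSO-treated cells at an adjusted p under 0.05 in edgeR, where 0.0382% of all genes did. At an unadjusted p under 0.05 there were 2, GDF15 and TIGAR, where 3.09% of all genes passed, and DESeq2 and the likelihood ratio test also called 0. GDF15, with serum effects of 2.38 and 1.90, differed by -0.48 ± 0.122 (SE, adjusted p = 0.402) on the log2 scale. TIGAR, with 0.88 and 0.65, differed by -0.23 ± 0.104 (SE, adjusted p = 1). The calls of BTG2 and GDF15 with serum alone thus do not show that KAP1 depletion acted on them differently with and without serum. The median difference over the 34 genes was -0.02, against 0.00 for all genes.

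Other genes of the pathway were taken from 3 further lists. Of 63 other p53 targets, 60 were tested. With serum in DMSO-treated cells 18 rose and 13 fell, again beside 9.15% and 17.0% of all genes, led by ATF3, a stress transcription factor (6.06, adjusted p = 8.07e-27), PMAIP1, the death protein NOXA (1.81, adjusted p = 8.17e-17), the polo-like kinase PLK2 (1.58, adjusted p = 2.24e-16) and the phosphatase PTP4A1 (1.49, adjusted p = 3.29e-16). In dTAG-treated cells 15 rose and 9 fell, beside 9.04% and 15.3% of all genes. After KAP1 depletion without serum 1 rose and 0 fell, where 0.848% and 0.435% of all genes did. With serum 0 rose and 2 fell, where 0.588% and 0.626% of all genes did. Below 0 lay 38 (63.3%) of the 60 without and 42 (70%) with serum, against 52.3% and 50.2% of all genes. The medians were -0.05 and -0.08 (all genes, -0.01 and 0.00). SFN (14-3-3 sigma, a cell cycle brake) was at 41.3 ± 3.57 CPM in DMSO-S0 and 53.4 ± 2.48 CPM in dTAG-S0 (SD, n = 3), and its log2 fold change was 0.40 ± 0.079 (SE, adjusted p = 0.00604), opposite in sign to most members. ATF3 fell from 1041 ± 61.0 to 783 ± 58.2 CPM with serum (-0.41 ± 0.068 (SE, adjusted p = 8.54e-04)) and PMAIP1 from 116 ± 3.22 to 92.6 ± 4.21 CPM (-0.34 ± 0.069 (SE, adjusted p = 0.00753)). The apoptosis genes BAX and BBC3 gave -0.10 and -0.28 without serum and -0.16 and -0.26 with serum, none called (adjusted p from 0.0863 to 0.686).

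The second list held 24 regulators of p53, of which 0 were called for KAP1 depletion at either serum level in edgeR (0 without serum at an unadjusted p under 0.05 and 2 with serum). Of all genes 0.848% were called higher and 0.435% lower without serum, and 0.588% and 0.626% with serum. At the unadjusted threshold these shares were 5.4% and 6.13% without serum and 5.04% and 5.4% with serum. TRIM28, the transcript of KAP1, gave -0.06 and -0.04 (adjusted p = 0.789 and 0.888), and since the tag acts on the protein, it is no measure of KAP1 loss. With serum in DMSO-treated cells 2 of these 24 genes rose and 6 fell, against 9.15% and 17.0% of all genes, with KAT5 at 0.29, TRIM28 at 0.25, RCHY1 at -0.42 and CHEK2 at -0.35 (adjusted p = 0.00423, 0.0075, 1.40e-04 and 6.87e-04).

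Cell cycle genes that p53 represses through p21 gave 0 calls of 24 for KAP1 depletion at either serum level in edgeR. Calls were rare over all genes too, with 0.848% higher and 0.435% lower without serum and 0.588% and 0.626% with serum. At an unadjusted p under 0.05 the test passed 1 gene without and 2 with serum, and the medians were 0.02 and 0.00. Of all genes 5.4% passed higher and 6.13% lower without serum, and 5.04% and 5.4% with serum. With serum 0 rose and 5 fell in DMSO-treated cells, where 9.15% and 17.0% of all genes did, with AURKA at -0.30, BUB1 at -0.20, CCNB2 at -0.20 and BUB1B at -0.18 (adjusted p = 0.00509, 0.0168, 0.0238 and 0.0242). Of these 4, BUB1, CCNB2 and BUB1B lost their calls under several alternative settings. In dTAG-treated cells 7 of the 24 fell and 0 rose, where 15.3% and 9.04% of all genes did.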

How the data were processed

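RNA was depleted of ribosomal RNA, and ERCC spike-in RNA was added before library preparation. Per the methods and the submitters' processing notes, the authors trimmed reads (Trim Galore 0.6.4), mapped them to hg38 with STAR and counted them over whole protein-coding genes, introns included, with featureCounts (Subread 1.6.3). The deposited table holds raw, unnormalized read counts for each gene and ERCC transcript. Strand use in counting and the number of RUVg factors used by the authors are not given in the sources used here. Whole-gene counting adds unspliced RNA to each value, and reads without molecular identifiers cannot be told from PCR copies.

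Columns were assigned to samples by name. Features that reached 10 counts in 6 or more libraries (13093 genes, 69 of 92 ERCC transcripts) were scaled by the upper quartile, and 1 factor of unwanted variation was computed from the ERCC counts by the RUVg algorithm. All 4 groups and the factor were fitted in edgeR 4.0.16 (R 4.3.3) with the two-sided quasi-likelihood F-test, where the study used a likelihood ratio test. Benjamini-Hochberg adjustment ran over all 13093 genes, and a gene is called at an adjusted p under 0.05. SE is the log2 fold change over the square root of F. CPM are counts over upper-quartile scaled library sizes, without the factor. The fit was tested on simulated counts.

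Alternatives were TMM scaling, ERCC library sizes, 0 or 2 factors, no filter or a filter of 50 counts, a likelihood ratio test, DESeq2 1.42.0, a replicate block, a fit of only the libraries compared, and each library left out in turn. The members and the gene lists were chosen with earlier results of these data known. Members called in any comparison are given in full, up to 16 by adjusted p, and the others by range. From other lists the 4 genes of lowest adjusted p for serum in DMSO and those called for dTAG are named, and MDM2, ZMAT3, BAX and other uncalled genes with values were chosen after these were seen. Annotation is from GENCODE v44 and RefSeq (hg38), which may differ from the authors' annotation. No protein sequences were used here. The result of 1 gene of these lists is not reported here.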

Additional observations from a re-analysis of the deposited data

Results flagged for a closer look

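The serum response differed between dTAG-treated and DMSO-treated cells, by the edgeR test of the difference itself, for 0 of the 34 p53 target genes and for 2 genes of the other lists. ATF3, a stress transcription factor and p53 target, rose with serum by 6.06 in DMSO-treated and 5.36 in dTAG-treated cells on the log2 scale, a difference of -0.70 ± 0.116 (SE, adjusted p = 0.00586). This call was lost with ERCC library sizes (adjusted p = 0.0522), without DMSO-S0 replicate 2 (0.0741) and without dTAG-S0 replicate 3 (0.0650), with the difference between -0.80 and -0.61 over the libraries left out. For dTAG against DMSO, ATF3 gave 0.29 without serum (edgeR adjusted p = 0.134, not called) and -0.41 with serum (adjusted p = 8.54e-04), so both serum levels entered the difference. JUN, a serum-induced gene that is no member, rose by 4.26 and 3.32, a difference of -0.94 ± 0.125 (SE, adjusted p = 3.82e-04), and was higher in dTAG-S0 than in DMSO-S0 (log2 fold change 0.69, adjusted p = 1.22e-04).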

How the results depend on the processing

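For KAP1 depletion the direction held in every alternative tried, with 29 to 31 p53 target genes below 0 without serum and 31 to 33 with serum, and 0 called higher. The number called lower did not hold. Without serum it was 2, but 1 with ERCC library sizes, 4 with the filter of 50 counts (33 members tested), 4 with the likelihood ratio test, and 1 to 3 with 1 library left out (1 without DMSO-S0 replicate 2, dTAG-S0 replicate 1 or dTAG-S0 replicate 3). The number lower over all genes moved too, from 57 to 15 with ERCC library sizes, 201 with the filter of 50 counts (11665 genes tested) and 120 with the likelihood ratio test. Without those 3 libraries in turn it was 39, 28 and 22. With serum it was 4, but 1 with ERCC library sizes, 7 with 2 RUVg factors, 7 with DESeq2, 8 with the likelihood ratio test, 10 with no count filter, 11 with the filter of 50 counts, and 2 to 8 with 1 library left out (8 without DMSO-S0 replicate 1, 2 without DMSO-S30 replicate 1, DMSO-S30 replicate 3 or dTAG-S30 replicate 1). In the same order of settings the number lower over all genes went from 82 to 32, 119, 107, 145, 248 (17734 genes tested) and 227 (11665 genes tested). It was 147, 55, 46 and 141 without each of the libraries just named. The median without serum, -0.13, was -0.10 with ERCC library sizes and -0.15 to -0.11 with 1 library left out (-0.11 without DMSO-S0 replicate 2). That of all genes, -0.01, was 0.02 with ERCC library sizes and -0.004 without DMSO-S0 replicate 2.

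For serum in DMSO-treated cells the number lower, 10, was 5 with TMM scaling, 3 with ERCC library sizes and 6 with DESeq2, and the median, -0.07, was 0.0012, 0.0038 and -0.0078. In the same order the number lower over all genes, 2222, was 1059, 591 and 1049, and their median, -0.07, was 0.0016, -0.0097 and -0.0079. In dTAG-treated cells the number lower, 8, was 5, 3 and 4, the median, -0.08, was -0.019, -0.050 and -0.027, and 5 to 10 were called with 1 library left out (5 without dTAG-S0 replicate 3 or dTAG-S30 replicate 3). Over all genes the calls moved from 1184 higher and 2000 lower to 1584 and 978 with TMM scaling in dTAG-treated cells. The number lower there was 617 with ERCC library sizes and 972 with DESeq2. With TMM scaling, ERCC library sizes and DESeq2 the median over all genes, -0.06, was 0.0014, -0.023 and -0.0065. Without dTAG-S0 replicate 3 or dTAG-S30 replicate 3 the number lower was 1619 and 1180. With 1 library left out TRIM28 ran from -0.093 to 0.031 for KAP1 depletion with serum. For the named genes 1177 of the alternative values kept direction and side of the threshold, 116 lost the call and 2 changed sign (TRIM28). The cause of these changes was not tested.

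Libraries of the same replicate number did not deviate together (18 pairs, correlations from -0.15 to 0.14, 8 of 18 best with their own number), so the numbers are not taken to pair the samples. With the replicate block 11 fell with serum in DMSO-treated and 9 in dTAG-treated cells, and 2 without and 6 with serum fell after KAP1 depletion. Of the 13093 genes tested, 2274, 2048, 57 and 89 fell in these comparisons.

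Depth limits TRIM22 most among the members, with 25 counts in its lowest library.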
